A study of Mus musculus with 19 samples.

Results

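A list of 10 genes of early granulocyte and monocyte development was followed through all 19 RNA sequencing libraries of the series: the granule enzymes *Mpo*, *Elane*, *Prtn3* and *Ctsg*, the lysozyme gene *Lyz2*, the stored plasma protein gene *Hp*, and the surface or membrane markers *Ms4a3*, *Ly6c2*, *Cd68* and *Itgam*. They were taken by name out of the 54352 genes counted in each library. All 10 had reads in every library and passed the filter on low counts in each of the comparisons.

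Libraries came from 2 populations of mouse bone marrow. LSK cells (Lineage-, Sca1+, cKit+; called KLS in the labels) hold the stem cells and multipotent progenitors, and the common myeloid progenitors (CMPs) were sorted from the Sca1- cKit+ side of the same lineage-negative cells. Donor E-SLAM stem cells from C57BL/6 mice had been transduced with a doxycycline-inducible shRNA and given to sublethally irradiated C57BL/6-CD45.1;cKit-w41 recipients, 9 to 12 weeks old and of both sexes. After 10 weeks of reconstitution and 6 days on doxycycline food, zsGreen+ cells were sorted. The shRNA was sh10 or sh20, both directed at the long non-coding RNA *Spehd*, or a control against *Renilla* luciferase. LSK cells gave 4 libraries with the *Renilla* shRNA, 3 with sh10 and 3 with sh20, and CMPs gave 4, 3 and 2. All groups, controls included, shared the transduction, the transplantation, the recipient strain and doxycycline. A single transduced well supplied several recipients, and the sources do not say whether each library is 1 animal, so p-values measure the spread between libraries, which may be technical in part. Since these are sorted bulk samples, fewer expressing cells and less RNA per cell cannot be told apart.

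Libraries held 3647318 to 5965155 counts on genes, and the 5 CMP libraries with a *Spehd* shRNA (4918631 to 5965155) were all deeper than the 4 CMP libraries with *Renilla* (3857980 to 4314959). The sorted populations matched their labels in *Ly6a*, which encodes Sca1, at 1.57 to 9.62 CPM (counts relative to the TMM-scaled library size) in CMPs and 40.8 to 82.0 CPM in LSK cells. No counted gene is named *Spehd*, so the depth of its knockdown was not measured here. Some libraries stood apart from their group. Over genes, the chi-square distance per degree of freedom between replicates was 34.5 and 41.4 for LSK sh10 B against A and C, 26.4 between the 2 CMP sh20 libraries and 13.4 to 17.5 among the LSK sh20 libraries, against 4.10 to 7.71 for all other pairs. Some libraries also held genes of other cells. The summed level of 14 genes of late granules and mature neutrophils was 355 CPM in LSK sh10 B, 388 in LSK *Renilla* B and 224 in LSK *Renilla* D, against 12.7 to 149 CPM in all other libraries. The 6 macrophage markers summed to 256 CPM in CMP sh20 B, 196 in CMP sh20 C and 187 in CMP *Renilla* C, against 32.0 to 81.1 CPM in the other CMP libraries.

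Azurophil granules are the first granules that a developing neutrophil makes. They are filled at the promyelocyte stage with myeloperoxidase (*Mpo*), which makes hypochlorous acid, and with the serine proteases neutrophil elastase (*Elane*), proteinase 3 (*Prtn3*) and cathepsin G (*Ctsg*). The RNAs of these proteins appear early in granulocyte and monocyte progenitors and are lost in mature cells, so they are widely used to follow myeloid commitment. C/EBP factors, PU.1 (*Spi1*), MYB and RUNX1 are known regulators of this gene group.

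The promoters of the 4 azurophil genes and of *Ms4a3* are shown because these genes take part in the difference between the populations described next. The stretches are upstream of the RefSeq start, limited to bases outside every GENCODE vM21 exon, and are written 5′ to 3′ on the strand of the gene from RefSeq on GRCm38.p6. Capitals mark matches on either strand to GAGGAA (the core bound by PU.1), TTNNGNAA (C/EBP) and TGTGGT (RUNX). The shown stretch of *Mpo* is chr11:87793534-87793580 (plus strand), that of *Elane* chr10:79886062-79886246 (plus), that of *Prtn3* chr10:79879417-79879613 (plus), that of *Ctsg* chr14:56102575-56102824 (minus) and that of *Ms4a3* chr19:11640852-11641101 (minus).
Mpo: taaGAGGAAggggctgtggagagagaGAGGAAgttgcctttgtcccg
Elane: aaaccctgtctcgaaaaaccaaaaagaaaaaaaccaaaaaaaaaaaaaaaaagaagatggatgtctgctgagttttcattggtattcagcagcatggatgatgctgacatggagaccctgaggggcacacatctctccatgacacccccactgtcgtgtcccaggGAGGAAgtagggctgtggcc
Prtn3: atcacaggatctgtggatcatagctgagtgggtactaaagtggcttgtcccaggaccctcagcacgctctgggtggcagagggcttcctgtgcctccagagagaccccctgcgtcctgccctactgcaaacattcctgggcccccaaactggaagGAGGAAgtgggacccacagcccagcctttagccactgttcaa
Ctsg: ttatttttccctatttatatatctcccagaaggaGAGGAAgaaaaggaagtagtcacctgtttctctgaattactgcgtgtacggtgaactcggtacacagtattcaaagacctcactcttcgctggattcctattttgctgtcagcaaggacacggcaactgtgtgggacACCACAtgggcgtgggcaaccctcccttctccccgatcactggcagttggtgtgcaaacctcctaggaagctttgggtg
Ms4a3: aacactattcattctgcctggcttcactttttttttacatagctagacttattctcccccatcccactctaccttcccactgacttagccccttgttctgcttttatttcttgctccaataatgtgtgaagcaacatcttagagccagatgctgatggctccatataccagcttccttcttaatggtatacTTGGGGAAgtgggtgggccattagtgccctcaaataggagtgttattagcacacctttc

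In the whole RefSeq windows, from 250 bases before to 50 after the start, 9 of the 10 members had an entry. *Hp* had none. GAGGAA lay in the window of 8 members (*Lyz2* was the exception), and 28.3% of all 32851 windows hold it. TTNNGNAA lay in 5 members (40.7% of all windows), AACNG, the core bound by MYB, in 7 (80.3%), and TGTGGT in 3 (16.8%). Letters in a window are a description and not a binding site. *Prtn3* and *Elane* are neighbors on chromosome 10, both on the plus strand, with 3072 bases between the end of the first and the start of the second.

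To ask how the early myeloid program differs between the stem cell compartment and CMPs in control cells, the *Renilla* libraries of both populations were compared. All 10 members had a lower mean in CMPs, and 9 of them fell past the threshold, with *Lyz2* as the exception. The fall was largest for *Hp*, *Ms4a3*, *Ly6c2* and *Elane*, at 6.90-, 5.14-, 4.74- and 4.16-fold, and smallest among the 9 for *Mpo*, at 1.48-fold. Of all 15066 genes tested in this comparison, 8.73% were called lower in CMPs and 11.0% higher (edgeR quasi-likelihood test, FDR 0.05). The median log2 fold change was -1.49 over the members and -0.02 over all genes. In the *Renilla* libraries, 8 of the 10 members had no CMP library that reached any LSK library, against 17.1% of the 13221 genes that averaged 10 counts or more. Over all shRNAs, the 9 CMP libraries lay below all 10 LSK libraries for 6 members (*Elane*, *Prtn3*, *Ctsg*, *Ms4a3*, *Ly6c2* and *Hp*), against 3.63% of those 13221.

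**Figure D1:**
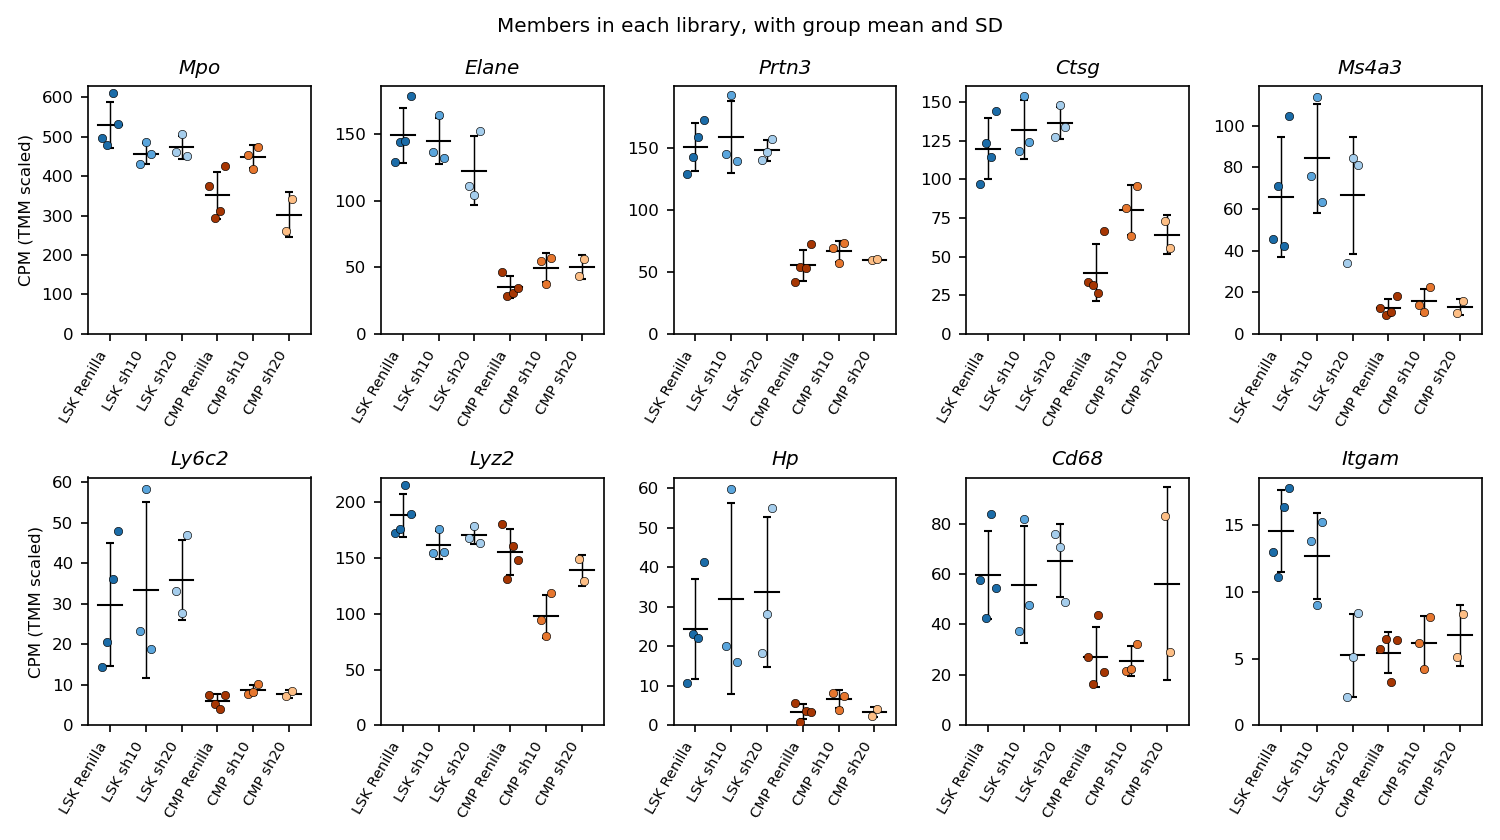
CPM of each member (vertical axis, linear, from 0; scaled by TMM) in each library, by population and shRNA (horizontal axis); points are libraries, horizontal bars are group means and error bars are SDs. *Elane*, *Prtn3*, *Ctsg*, *Ms4a3*, *Ly6c2* and *Hp* separate the 9 CMP from the 10 LSK libraries, while *Mpo*, *Lyz2*, *Cd68* and *Itgam* overlap.

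Of the azurophil enzymes, *Elane* (chr10:79886247-79888215, plus strand, 5 exons, ENSMUSG00000020125.7) separated the populations most. With *Renilla* it stood at 129, 144, 145 and 179 CPM in LSK cells and at 46.8, 28.6, 30.4 and 34.2 CPM in CMPs. The lowest LSK library was therefore well above the highest CMP library, and the log2 fold change was -2.06 ± 0.19 (SE; n = 4 and 4; edgeR adjusted p = 1.6e-06). With sh10 and sh20 it ran from 104.5 to 164 CPM in LSK cells and from 37.5 to 57.2 CPM in CMPs.

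*Prtn3* (chr10:79874476-79883174, plus strand, ENSMUSG00000057729.12), whose protease resembles elastase, was at 129, 142, 159 and 173 CPM in LSK *Renilla* libraries and at 42.2, 54.1, 52.8 and 72.3 CPM in CMP *Renilla* libraries. The log2 fold change of -1.42 ± 0.15 had an edgeR adjusted p of 1.03e-05. *Plppr3*, on the other strand, shares 159 exon bases with *Prtn3*, held 424 to 2130 counts, and was likewise higher in LSK cells (272 to 409 CPM) than in CMPs (70.3 to 194 CPM). HTSeq was run with default settings, which count by strand, and whether the libraries kept strand is not given in the sources used here, so reads of these 2 genes in the shared bases cannot be told apart.

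*Ctsg* (chr14:56099881-56102574, minus strand, ENSMUSG00000040314.2) was at 97.2, 124, 114 and 145 CPM in LSK cells with *Renilla* and at 33.6, 31.7, 26.7 and 66.7 CPM in CMPs. *Renilla* replicate D was the high CMP library and lay below each LSK library. Its log2 fold change was -1.57 ± 0.23 (edgeR adjusted p = 0.000213).

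*Mpo* (chr11:87793581-87804413, plus strand, 15 exon blocks, ENSMUSG00000009350.13) had the highest mean per kilobase of transcript in every group. With *Renilla* it was at 498, 479, 611 and 532 CPM in LSK cells and at 374, 295, 312 and 426 CPM in CMPs. The populations did not overlap, but the log2 fold change of -0.56 ± 0.11 (edgeR adjusted p = 0.00227) was the smallest of the 9 members called.

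The counts of *Mpo* lay close to a limit. Duplicate alignments were removed from these libraries before counting, so a gene can collect few reads that start at the same bases. Over 10400 genes averaging 50 counts or more, the mean count per base of the longest transcript had a median of 0.105, a 99th percentile of 0.69 and a maximum of 0.988. *Mpo* averaged 0.763 counts per base, at percentile 99.6, and in LSK libraries it held 2239 to 2531 counts whether the library had 3647318 or 5617906 counts in all. *Lyz2* averaged 0.567, *Prtn3* 0.519, *Ctsg* 0.469 and *Elane* 0.469 counts per base, while *Cd68*, *Ms4a3*, *Hp* and *Ly6c2* were at 0.188, 0.146, 0.065 and 0.038. At a fixed count, CPM is lower in a deeper library. With an offset that follows counts per base in each library, the log2 fold change of *Mpo* between CMP and LSK *Renilla* libraries was -0.74 and that of *Elane* was -2.22, and *Lyz2* also passed the threshold, at -0.41 (adjusted p = 0.0169). This offset was chosen after seeing the data.

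**Figure D2:**
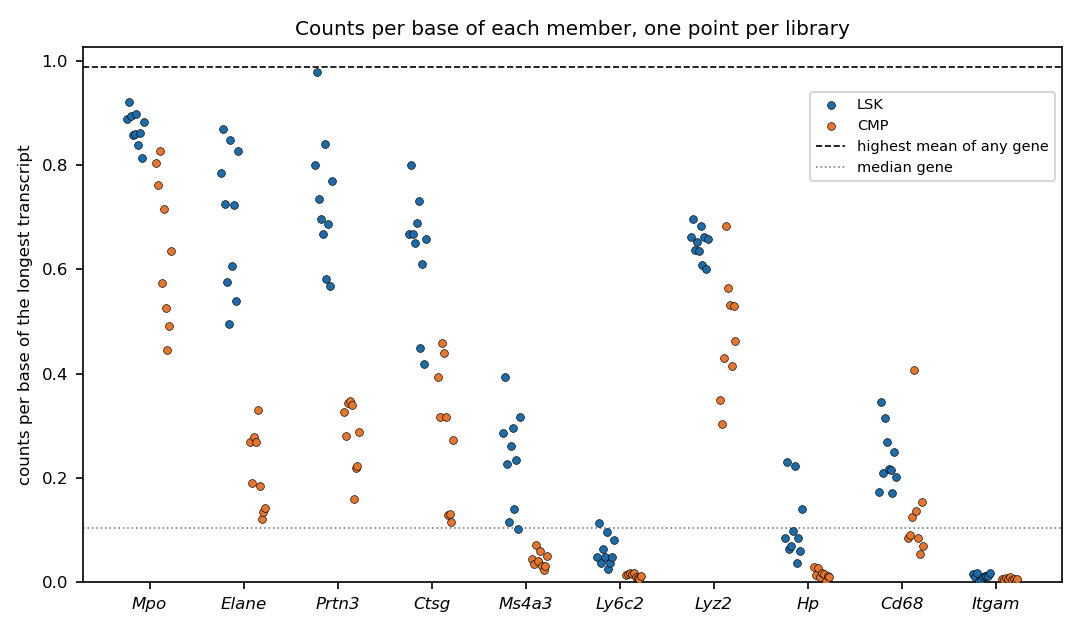
Counts per base of the longest transcript (vertical axis, linear, from 0) for each member (horizontal axis), with 1 point per library in LSK cells (blue) and CMPs (orange); the dashed line is the highest mean of any gene, 0.988, and the dotted line the median gene, 0.105. *Mpo* in LSK libraries lies at 0.814 to 0.920, close to the highest mean, and *Itgam* lies nearest 0, at 0.0023 to 0.0175.

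*Gm11505*, an antisense gene with 512 exon bases in common with *Mpo*, was the gene whose level most resembled that of *Mpo* over the 19 libraries (Pearson r of log2 CPM 0.978, rank 1 of 10483 genes averaging 50 counts or more). It held 611 to 636 counts in every LSK library and 342 to 607 in CMPs, and its reads cannot be told apart from those of *Mpo* in the shared bases. The next were *Vav1*, *Slc31a2*, *Lcp1* and *Lta4h*, with r from 0.872 to 0.902. *Hp* ranked 81st (r = 0.768) as the nearest member, *Prtn3*, *Ctsg*, *Elane*, *Ly6c2* and *Ms4a3* ranked from 123rd to 223rd, and *Cd68* and *Lyz2* ranked 2523rd and 2752nd. *Itgam* was under the count minimum. These correlations describe libraries that fall into the same 2 populations and share depth, and carry no test.

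Per length, the order of levels in LSK *Renilla* libraries was *Mpo* at 193 ± 21.2 CPM per kilobase of the longest transcript (SD, n = 4), then *Elane* at 151 ± 21.3, *Prtn3* at 147 ± 18.8, *Lyz2* at 143 ± 14.8 and *Ctsg* at 119.7 ± 19.7. The libraries of neighboring genes overlapped throughout these 5. *Cd68* (48.4 ± 14.1) and *Ms4a3* (43.9 ± 19.2) overlapped each other and lay well below, followed by *Hp* (18.1 ± 9.36), which overlapped *Ms4a3* and *Ly6c2* (11.1 ± 5.67), and by *Itgam* (3.11 ± 0.65), below every library of the others. In CMP *Renilla* libraries *Mpo* (128 ± 21.9) and *Lyz2* (118 ± 15.9) had the highest means and overlapped, and *Prtn3*, *Ctsg* and *Elane* had dropped to 54.0, 39.6 and 35.6 CPM per kilobase. The top genes are those nearest the limit on counts per base.

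Among the progenitor markers, *Ms4a3* (chr19:11629496-11640851, minus strand, ENSMUSG00000024681.11), a membrane protein gene that marks granulocyte and monocyte progenitors, was at 45.8, 71.2, 42.3 and 104.6 CPM in LSK *Renilla* libraries and at 12.4, 8.89, 10.6 and 18.3 CPM in CMPs. The LSK libraries differed among themselves by more than the CMP libraries did, and the log2 fold change was -2.36 ± 0.37 (edgeR adjusted p = 0.000331).

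*Ly6c2* (chr15:75108158-75111970, minus strand, ENSMUSG00000022584.14), one of the genes of the Ly6C antigen on monocytes and their precursors, was at 14.5, 20.4, 36.0 and 48.0 CPM in LSK *Renilla* libraries and at 7.50, 5.29, 4.15 and 7.57 CPM in CMPs, a log2 fold change of -2.24 ± 0.41 (edgeR adjusted p = 0.00121). Its near-identical neighbor *Ly6c1* held 0 to 7 counts in any library. Reads that fit both genes would not have been counted, so the level of *Ly6c2* is uncertain to that extent.

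*Hp* (chr8:109575128-109579172, minus strand, ENSMUSG00000031722.10) encodes haptoglobin, a hemoglobin-binding protein that developing neutrophils store. It was at 10.8, 23.1, 22.1 and 41.2 CPM in LSK *Renilla* libraries and at 5.69, 0.96, 3.69 and 3.42 CPM, or 22, 4, 16 and 14 counts, in CMPs. The log2 fold change of -2.79 ± 0.57 (edgeR adjusted p = 0.00255) had the largest SE of the members.

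*Lyz2* (chr10:117277331-117282321, minus strand, ENSMUSG00000069516.8), the lysozyme of granulocytes and macrophages, was at 173, 176, 216 and 190 CPM in LSK *Renilla* libraries and at 181, 131, 161 and 149 CPM in CMPs. The populations overlapped, and its log2 fold change of -0.25 ± 0.12 missed the threshold (edgeR adjusted p = 0.173). The paralog *Lyz1* held 0 to 15 counts.

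*Cd68* (chr11:69664213-69666153, minus strand, ENSMUSG00000018774.13) encodes a lysosomal membrane protein of macrophages and monocytes. It was at 57.5, 42.7, 83.8 and 54.4 CPM in LSK *Renilla* libraries and at 27.2, 16.3, 43.6 and 21.0 CPM in CMPs, where replicate C overlapped the LSK libraries. The log2 fold change was -1.11 ± 0.36 (edgeR adjusted p = 0.0373), and the call was lost when any of 8 libraries was left out (CMP *Renilla* A, B or D, LSK *Renilla* A, C or D, CMP sh10 A or B), with an adjusted p of up to 0.124. The call of *Cd68* was also lost with the replicate letters as a block (edgeR adjusted p = 0.0582). *Itgam* (chr7:128062640-128118491, plus strand, 30 exon blocks, ENSMUSG00000030786.18), the integrin chain CD11b of granulocytes, monocytes and macrophages, was low, at 12.96, 11.1, 16.4 and 17.8 CPM in LSK cells and 5.69, 6.49, 3.23 and 6.35 CPM in CMPs (log2 fold change -1.38 ± 0.38, edgeR adjusted p = 0.016). The call of *Itgam* was lost without CMP *Renilla* C (edgeR adjusted p = 0.0514). It was also lost without the 3 LSK libraries with the highest neutrophil gene sums (edgeR adjusted p = 0.0547). *Gm49368*, on the same strand, shares most exon bases with *Itgam* in GENCODE vM21, so reads there may have been left uncounted.

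Markers of other cells also differed between the populations. All 5 mast cell and basophil markers were called lower in CMP *Renilla* libraries, and their summed level was 116 to 194 CPM in CMPs and 351 to 805 CPM in LSK cells over all shRNAs. The 3 eosinophil genes summed to 13.2 to 63.3 CPM in CMPs and 17.7 to 759 CPM in LSK cells, and 1 of them was called lower. The 6 macrophage markers summed to 32.0 to 256 and 155 to 397 CPM, and 4 were called lower. All 7 erythroid markers were called higher in CMPs with *Renilla*, and their sum was 910 to 1129 CPM in CMPs and 146 to 325 CPM in LSK cells. Of 5 megakaryocyte markers 4 were called higher in CMPs with *Renilla*, where their sum was 806 to 1404 CPM, against 523 to 807 CPM in LSK *Renilla* libraries. The part of these cells in the members' levels was not tested. Without the 3 LSK libraries in which mature neutrophil genes were highest, a setting chosen after seeing the data, 8 of the 10 members were called in *Renilla* cells. The share of all genes called in that fit is not given here. The log2 fold change was -1.95 for *Elane*, -1.79 for *Ms4a3* and -2.23 for *Hp*. In LSK *Renilla* A and C, where *S100a8*, a calprotectin subunit of mature neutrophils, had 6 and 5 counts, *Elane* was at 129 and 145 CPM and *Hp* at 10.8 and 22.1 CPM.

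The same comparison was made within each *Spehd* shRNA. With sh10, 6 members were called lower in CMPs and none higher, where 8.58% of all genes were called lower and 7.51% higher. With sh20, 7 were called lower and none higher, where 8.64% of all genes were called lower and 5.94% higher. *Elane*, *Prtn3*, *Ms4a3*, *Ly6c2* and *Hp* were called lower in CMPs with each of the 3 shRNAs. *Mpo* had a log2 fold change of 0.00 ± 0.13 with sh10 (edgeR adjusted p = 0.992) and of -0.63 ± 0.15 with sh20 (adjusted p = 0.00807). With sh10 it was at 0.76 to 0.83 counts per base in CMPs and 0.89 to 0.92 in LSK cells. Both lie near the limit described above, so 0.00 cannot be read as no difference. *Lyz2* was called only with sh10, at -0.70 ± 0.14 (adjusted p = 0.00291), and *Ctsg* missed the threshold with sh10, at -0.69 ± 0.26 (adjusted p = 0.0797). *Cd68* and *Itgam* were called with neither. With DESeq2, *Ctsg* (adjusted p = 0.0402) and *Cd68* (adjusted p = 0.0345) were also called lower with sh10.

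The count with sh20 rests on few libraries. CMPs with sh20 gave 2 libraries, and leaving out replicate B leaves 1 library in the group, which is then assumed to vary like the other groups. Without replicate B, the log2 fold changes of *Mpo*, *Ctsg*, *Ms4a3*, *Ly6c2* and *Hp* ran from -0.45 to -3.00. In a fit of the sh20 libraries alone, *Prtn3* was the 1 member called. The share of all genes called in that fit is not given here, so a loss particular to the members cannot be told from a general one. With sh10, 4 members were called without LSK sh10 B, the library with 355 CPM of late neutrophil genes. In that fit *Hp* moved from -2.25 to -1.40 (adjusted p = 0.118) and *Ly6c2* from -1.91 to -1.20 (adjusted p = 0.0602), and both calls were lost. LSK sh10 A and C, which also held late granule RNA, stayed in. The share of all genes called in that fit is not given here either.

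**Figure D3:**
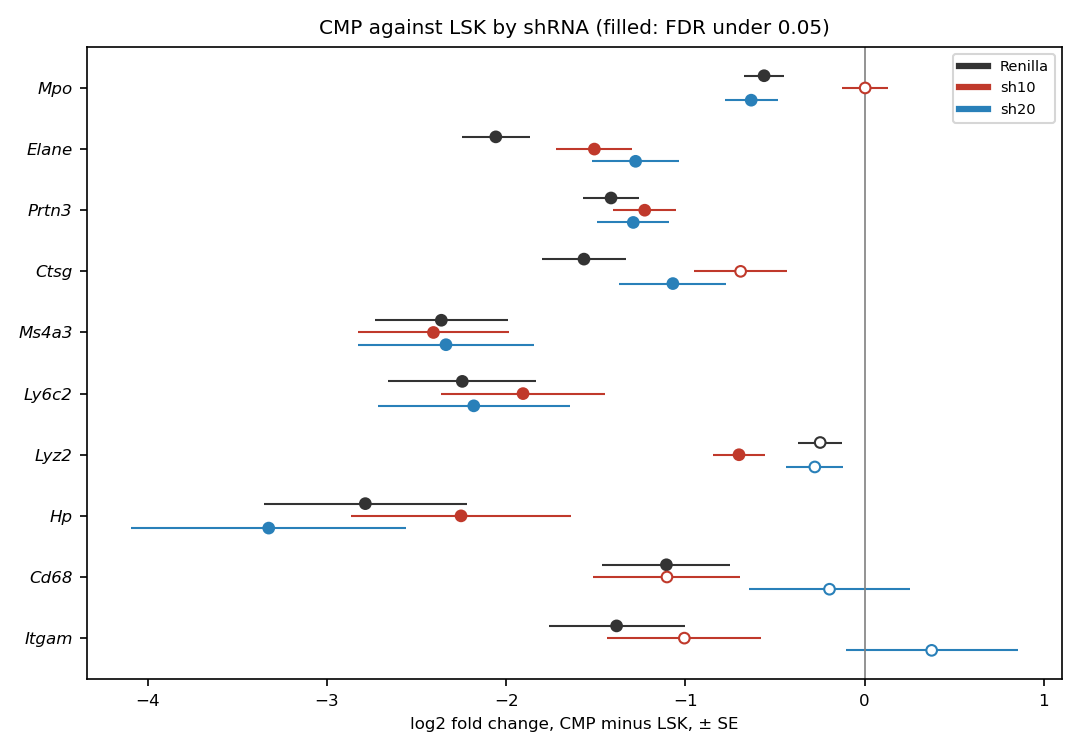
Log2 fold change of CMP against LSK libraries with its SE (horizontal axis) for each member (vertical axis), by shRNA; filled points had an edgeR adjusted p under 0.05. *Mpo* lies at 0.00 with sh10 and at -0.56 and -0.63 with *Renilla* and sh20, and the 5 members called with all 3 shRNAs lie below -1. The counts of *Mpo* with sh10 lay near the limit on counts per base in both populations.

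To ask whether *Spehd* knockdown changed these genes, each shRNA was compared with *Renilla* within CMPs. No member passed the threshold with sh10, with sh20 or with both as 1 group. Of all genes, 1.97% were called with sh10, 6.17% with sh20 and 0.116% with both. At an unadjusted p under 0.05, edgeR gave 4 members with sh10, 1 with sh20 and 3 with both, and 21.2%, 24.6% and 16.6% of all genes. The members' median log2 fold change was 0.33 with sh10 and 0.23 with sh20, against -0.01 and 0.01 over all genes.

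**Figure D4:**
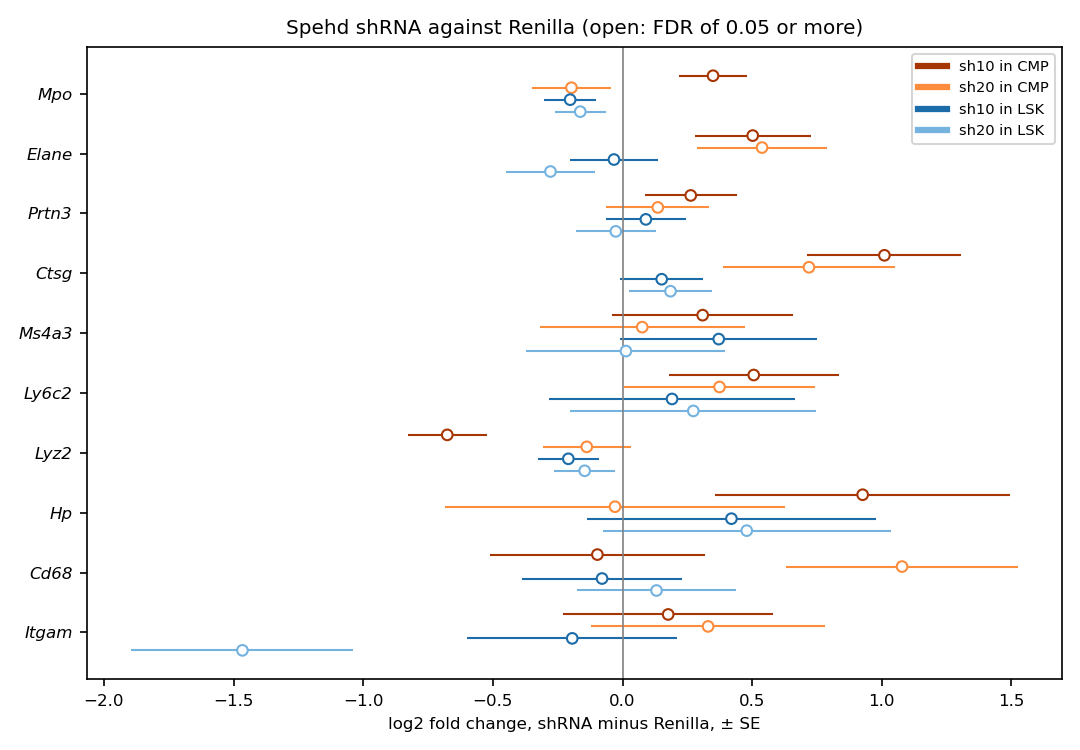
Log2 fold change of each *Spehd* shRNA against *Renilla* with its SE (horizontal axis) for each member (vertical axis), in CMPs (brown and orange) and LSK cells (blue). All points are open since none had an adjusted p under 0.05; the points furthest from 0 are *Itgam* with sh20 in LSK cells, at -1.47, and *Cd68* and *Ctsg* in CMPs, at 1.08 and 1.01.

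*Ctsg* was the granule protease with the largest difference upon knockdown in CMPs. It was at 81.3, 63.3 and 95.8 CPM with sh10 and at 73.2 and 55.3 CPM with sh20, against 33.6, 31.7, 26.7 and 66.7 CPM with *Renilla*. The 5 knockdown libraries lay above 3 of the 4 *Renilla* libraries, and replicate D overlapped them. Its log2 fold change was 1.01 ± 0.30 with sh10 (edgeR adjusted p = 0.0991) and 0.72 ± 0.33 with sh20 (adjusted p = 0.216). Without *Renilla* D, both passed the threshold, at 1.38 (adjusted p = 0.0471) and 1.10 (adjusted p = 0.0388). That library was the only control that overlapped, so leaving it out separates the groups by construction. DESeq2 called *Ctsg* with sh10 (adjusted p = 0.017) and with both shRNAs (adjusted p = 0.0185).

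*Lyz2* differed the other way. It was at 94.9, 79.9 and 118 CPM in CMPs with sh10, below each of the 4 *Renilla* libraries (131 to 181 CPM), and at 149 and 129 CPM with sh20. Of the 13221 genes averaging 10 counts or more, 13.1% had every sh10 library below every *Renilla* library and 12.9% had every one above. The log2 fold change of *Lyz2* was -0.68 ± 0.15 with sh10 (edgeR adjusted p = 0.055) and -0.14 ± 0.17 with sh20 (adjusted p = 0.664), and with the offset by counts per base -0.57 ± 0.16 and 0.02 ± 0.17. DESeq2 (adjusted p = 0.00215), upper quartile normalization (0.0393), no filter (0.00191) and a fit of all 19 libraries (0.0253) each called it with sh10.

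*Mpo* in CMPs was at 455, 418 and 475 CPM with sh10, at 262 and 343 CPM with sh20, and at 295 to 426 CPM with *Renilla*. The sh10 libraries overlapped *Renilla* D, with a log2 fold change of 0.35 ± 0.13 (edgeR adjusted p = 0.166). With sh20 it was -0.20 ± 0.15 (adjusted p = 0.464). With the offset by counts per base these values of *Mpo* were 0.50 ± 0.12 (adjusted p = 0.0793) and 0.04 ± 0.14 (adjusted p = 0.892), so the sign with sh20 depended on the offset. *Elane* was at 54.6, 37.5 and 57.2 CPM with sh10 and at 43.8 and 56.5 CPM with sh20, against 28.6 to 46.8 CPM with *Renilla*, with log2 fold changes of 0.50 ± 0.22 and 0.54 ± 0.25 (adjusted p = 0.235 and 0.217). *Prtn3*, its neighbor, was at 57.3 to 73.5 CPM in the 5 knockdown libraries and 42.2 to 72.3 CPM with *Renilla*.

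*Ly6c2* was at 7.83, 8.19 and 10.2 CPM with sh10, each above the highest *Renilla* library (7.57 CPM), on 38 to 49 counts, and its log2 fold change of 0.51 ± 0.33 missed the threshold (edgeR adjusted p = 0.422). *Hp* was at 8.24, 3.99 and 7.52 CPM with sh10 and overlapped *Renilla* (0.93 ± 0.57, adjusted p = 0.397). *Ms4a3* and *Itgam* overlapped as well, with log2 fold changes of 0.31 ± 0.35 and 0.18 ± 0.40. With sh20 the log2 fold change was 0.37 ± 0.37 for *Ly6c2*, -0.03 ± 0.66 for *Hp*, 0.08 ± 0.395 for *Ms4a3* and 0.33 ± 0.45 for *Itgam*. With these counts and SEs, changes of this size in the low members could not be told from no change.

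*Cd68* was at 83.1 CPM in CMP sh20 B and 29.2 CPM in sh20 C, against 16.3 to 43.6 CPM with *Renilla* and 21.6 to 32.4 CPM with sh10. With sh20 the log2 fold change was 1.08 ± 0.45 (edgeR adjusted p = 0.173), and 0.12 without replicate B. That library had 48.8 CPM of *Adgre1* and 43.8 CPM of the complement gene *C1qa*, and the second highest *Cd68* of the CMP libraries, in *Renilla* C, came with 25.1 CPM of *Adgre1* and 23.3 CPM of *C1qa*. *C1qa* was also high in sh20 C (36.0 CPM), where *Cd68* was at 29.2 CPM. Of the 6 macrophage markers, *C1qa* (39.9 CPM against 11.4 CPM, edgeR adjusted p = 0.0494) and *Spic* (22.6 CPM against 6.90 CPM, adjusted p = 0.0482), a factor of red pulp macrophages, were called higher with sh20 in CMPs. The part of macrophage RNA in the level of *Cd68* was not tested.

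The 2 *Spehd* shRNAs were compared with each other in CMPs, and no member passed the threshold, where 6.41% of all genes did. *Mpo* was lower with sh20 than with sh10, without overlap, at a log2 fold change of -0.55 ± 0.16 (edgeR adjusted p = 0.0701), and *Lyz2* was higher, without overlap, at 0.54 ± 0.18 (adjusted p = 0.093). Of the 13221 genes, 24.7% were lower and 18.2% higher without overlap in this comparison of 2 with 3 libraries. DESeq2 called both, at adjusted p of 0.0144 and 0.0414. Leaving out either sh20 library leaves 1 in that group, whose spread is then taken from the other groups. *Mpo* was at -0.38 (adjusted p = 0.197) without sh20 B and at -0.74 (adjusted p = 0.0165) without sh20 C.

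In LSK cells no member passed the threshold with sh10, sh20 or both shRNAs against *Renilla*, nor between the shRNAs, and 0.0% of all genes did in each of these 4 comparisons by edgeR. The same held for the members under every alternative run, DESeq2 included. At an unadjusted p under 0.05, edgeR gave 0 members with sh10 and 1 with sh20, 1 with both and 1 between the shRNAs, and 3.3%, 8.33%, 3.66% and 9.17% of all genes. *Itgam* differed most, at 2.16, 5.14 and 8.39 CPM with sh20, on 11, 24 and 46 counts, below each *Renilla* library (11.1 to 17.8 CPM), as was the case for 6.7% of the 13221 genes. Its log2 fold change was -1.47 ± 0.43 (edgeR adjusted p = 0.331). *Mpo* (-0.20 ± 0.10 with sh10, -0.16 ± 0.10 with sh20), *Elane* (-0.03 ± 0.17 and -0.28 ± 0.17) and *Prtn3* (0.09 ± 0.15 and -0.03 ± 0.15) missed the threshold with each shRNA. *Mpo* was the 1 member with an unadjusted p under 0.05 for both shRNAs as 1 group, at -0.18 ± 0.08 (edgeR adjusted p = 0.998). This value was -0.07 ± 0.04 with the offset by counts per base. It was -0.29 ± 0.10 without the 3 LSK libraries with the highest neutrophil gene sums. For each shRNA against *Renilla*, the SEs of *Hp* and *Ly6c2* were 0.47 to 0.56.

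Whether knockdown acted differently in CMPs and LSK cells was tested by the interaction. No member passed for sh10, where 0.0199% of all genes did, or for sh20, where 0.584% did. For sh10, *Mpo* had a difference of log2 fold changes, CMP minus LSK, of 0.56 ± 0.17 (edgeR unadjusted p = 0.00419, adjusted p = 0.54), *Ctsg* of 0.87 ± 0.35 (adjusted p = 0.639) and *Lyz2* of -0.45 ± 0.19 (adjusted p = 0.639). The value of *Mpo* rests in part on counts near the limit, and its size with the offset is not given here. For sh20, *Itgam* had 1.76 ± 0.61 (adjusted p = 0.232) and *Elane* 0.78 ± 0.30 (adjusted p = 0.269).

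Other genes of the program were taken from 5 lists. Of 8 transcription factors of granule genes, 5 were called lower in CMPs with *Renilla* and none higher. *Gfi1*, a repressor needed for granulocyte development, was at 11.2 CPM on average in CMPs and 58.2 CPM in LSK cells (log2 fold change -2.35 ± 0.34), *Cebpa* at 13.6 and 39.4 CPM (-1.50 ± 0.32), and *Spi1* at 116 and 184 CPM (-0.64 ± 0.16), with edgeR adjusted p from 0.000164 to 0.00865. *Cebpe*, the factor of late granule genes, was at 0.59 and 12.2 CPM, and *Cebpb* at 47.4 and 78.1 CPM. *Myb* (519 and 499.6 CPM) and *Runx1* (147 and 183 CPM) were not called. The same 5 factors were called lower with sh10, and 4 of them with sh20. *Myb* was called higher in CMPs with sh10 (528 and 397 CPM, adjusted p = 0.0405), where LSK sh10 B was at 268 CPM and LSK sh10 A and C at 460.4 and 463 CPM. None of the 7 factors tested was called upon knockdown with either shRNA in CMPs. The median of this list was -0.66 with *Renilla*, against -0.02 over all genes.

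Of 8 receptors, 6 were called lower in CMPs with *Renilla*. *Csf3r*, the receptor for G-CSF, was at 61.8 CPM in CMPs and 218 CPM in LSK cells (-1.78 ± 0.10, edgeR adjusted p = 1.98e-08), and *Csf2rb*, the common β chain, at 22.5 and 99.7 CPM (-2.12 ± 0.19). *Itgb2*, the partner chain of *Itgam*, was at 145 and 119 CPM and was not called, and neither was *Csf2ra* (72.6 and 101.6 CPM). *Csf3r* was the 1 receptor called upon knockdown in CMPs, with sh20, at 20.2 CPM against 61.8 CPM (-1.59 ± 0.16, adjusted p = 0.00549). With sh10 it was at 65.6 CPM (0.08 ± 0.13, adjusted p = 0.792).

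Of 10 azurophil granule partners, 9 were tested, and 3 were called lower and 1 higher in CMPs with *Renilla*. *Serpinb1a*, an inhibitor of these proteases, was at 164 CPM in CMPs and 242 CPM in LSK cells (-0.54 ± 0.10), *Prss57* at 24.8 and 63.3 CPM (-1.32 ± 0.27), and *Ctsc*, the enzyme that activates the granule proteases, at 128 and 210 CPM (-0.68 ± 0.14), with edgeR adjusted p from 0.00194 to 0.00284. *Lamp1*, a general lysosomal membrane gene, was higher (333 and 299 CPM). *Srgn*, the proteoglycan that packs the proteases, did not differ between populations past the threshold (0.07 ± 0.09), and was the 1 partner called upon knockdown in CMPs. It was at 192 to 211 CPM with *Renilla* and lower, at 154 to 168 CPM, in all 5 knockdown libraries, with log2 fold changes of -0.30 ± 0.06 for sh10 (edgeR adjusted p = 0.0473) and -0.35 ± 0.07 for sh20 (adjusted p = 0.0263). With both shRNAs as 1 group it was not called (adjusted p = 0.0667). Its counts were 773 to 864 with *Renilla* and 778 to 929 with knockdown, and the knockdown libraries were the deeper ones.

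Of 14 late granule and mature neutrophil genes, 13 were tested and 7 were called lower in CMPs with *Renilla*, 6 with sh10 and none with sh20, where *Mmp9*, a gelatinase, was called higher. Upon knockdown in CMPs 6 were tested, and *Mmp9* was called lower with sh10 (0.41 CPM against 12.3 CPM, adjusted p = 0.0221 by edgeR) and none with sh20. *Ltf*, which encodes lactoferrin, was at 1.08, 103, 1.64 and 14.03 CPM in LSK *Renilla* A to D and at 0.23 to 1.95 CPM in CMP *Renilla* libraries. In the LSK sh20 libraries it had 2 to 4 counts, while *Elane* there was at 104.5 to 152 CPM and *Hp* at 18.2 to 54.9 CPM. The highest *Hp* levels of all were in LSK sh10 B (59.7 CPM), with 68.0 CPM of *Ltf*, and in LSK sh20 C (54.9 CPM), with 0.55 CPM of *Ltf*.

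Of 12 genes of the monocyte lineage, 4 were called lower in CMPs with *Renilla* and none higher. *Irf8*, a factor of monocyte and dendritic cell development, was at 82.8 CPM in CMPs and 202 CPM in LSK cells, *Emb* at 116 and 264 CPM, and *F13a1*, a coagulation factor chain expressed by monocytes, at 8.48 and 65.2 CPM. *Csf1r*, the M-CSF receptor, was at 61.0 and 62.7 CPM (edgeR adjusted p = 0.994). Upon sh10 knockdown in CMPs *Irf8* rose to 283, 278 and 346 CPM, against 67.0, 46.1, 106 and 112 CPM with *Renilla* (1.86 ± 0.25, adjusted p = 0.0158), and *F13a1* to 69.0, 73.5 and 95.6 CPM, against 7.57 to 10.4 CPM (3.21 ± 0.59, adjusted p = 0.035). With sh20, *Irf8* was at 95.7 and 106 CPM, and *F13a1* at 8.13 and 83.6 CPM, so the 2 libraries differed. *Cx3cr1*, the fractalkine receptor, was the 1 gene of the list called with sh20 (edgeR adjusted p = 0.0355). It was at 76.0 CPM in sh20 B, the library with the highest sum of macrophage markers, and at 10.4 CPM in sh20 C, against 1.71 to 8.30 CPM with *Renilla*. The members *Ly6c2* and *Cd68*, which monocytes also express, were not called upon knockdown with sh10 or sh20 in CMPs.

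Members varied together between populations more than within them. Across all 19 libraries the median Pearson r of log2 CPM over the 45 pairs of members was 0.665, within the 9 CMP libraries it was 0.439 and within the 10 LSK libraries 0.311. *Elane* and *Prtn3* had an r of 0.945 over all libraries, 0.691 in LSK cells and 0.295 in CMPs. *Ly6c2* and *Hp* had 0.943, 0.891 and 0.572. These values describe libraries that share depth and groups and carry no test.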

How the data were processed

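Reads of SMART-Seq v4 libraries were mapped by the authors to mm10 with STAR 2.5.2a, duplicates were removed with Picard 1.131, and HTSeq 0.7.2 counted reads on GENCODE vM11. The values deposited by the authors and used here are raw counts per gene, 1 file per library. A table of normalized values was not used here. Between 52.6% and 54.6% of uniquely aligned reads were assigned to no gene or to several, and were left out. Counting by strand also leaves out reads on the strand opposite a gene. Their part was not tested, since the sources used here do not say whether the libraries kept strand.

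Counts were scaled by TMM and filtered with filterByExpr (minimum count 10, minimum total 15), and compared with edgeR 4.0.16 (R 4.3.3, limma 3.58.1), by the quasi-likelihood test. P-values were adjusted over all tested genes by Benjamini-Hochberg, with a threshold of 0.05. CMP was compared with LSK, and the interactions tested, in 1 fit of all 19 libraries. Knockdown was tested within each population, per shRNA in 3 groups or with both shRNAs as 1 group. DESeq2 1.42.0 was an alternative. CPM are TMM scaled and log2 CPM used a prior count of 2. Intervals cover the spread between libraries only. Coordinates, lengths and overlaps come from GENCODE vM21 (GRCm38), in which 53775 of 54352 symbols were found, and promoters from RefSeq on GRCm38.p6. Tables and plots used Python 3.11.15, numpy 2.4.6, pandas 2.3.3 and matplotlib 3.10.9. The edgeR fit was tested on simulated data in which 200 genes changed.

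The members, lists, comparisons and alternatives were chosen with earlier results of these data known. Named are all members, their paralogs, up to 4 of the most abundant genes of each list, and the 5 genes most like *Mpo*, with marker lists given by their summed CPM; *Gfi1*, *Cebpa*, *Cebpe*, *Csf2rb*, *Cx3cr1*, *Spic*, *Prss57*, *Ctsc*, *S100a8*, *Adgre1*, *C1qa*, *Plppr3* and *Ly6a* were added after their values were seen. A receptor that the rule names is not reported here. No pair of replicates agreed within sampling noise, and none was merged. The replicate letters were not taken to pair libraries.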

Additional observations from a re-analysis of the deposited data

How the results depend on the processing

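Alternatives were in edgeR, upper quartile normalization or size factors as in DESeq2, no filter, a mean of at least 10 counts, DESeq2, other sets of libraries in the fit, log2 total counts as a covariate, the replicate letters as a block and leaving out each library in turn, and, chosen after seeing the data, an offset by counts per base and leaving out the 3 LSK libraries with neutrophil genes. The counts of members called in LSK knockdown and in the interactions were 0 in all of them. For CMP against LSK with *Renilla*, all 290 log2 fold changes of members under alternatives were below 0, with 8 to 9 members called when a library was left out. With sh10 it was 4 to 7. With sh20, 1 member was called when only the sh20 libraries were fitted, and leaving out a CMP sh20 library leaves 1 in that group. Shares of all genes called under the alternatives are not given here, so a general change in calls cannot be told from one of the members. For sh10 against *Renilla* in CMPs (main count 0), upper quartile normalization and all 19 libraries gave 1 member, no filter and DESeq2 gave 2, and leaving out a library 0 to 1. For sh20 against *Renilla* in CMPs, leaving out a library gave 0 to 1, and for both shRNAs DESeq2 gave 1. For sh20 against sh10 in CMPs, no filter gave 3, DESeq2 2, log2 total counts 1, all 19 libraries 1, and leaving out a library 0 to 3. The cause was not tested, except that fits with fewer libraries have fewer degrees of freedom. No called value changed sign. The labels do not say that replicate letters pair libraries: for 16 same-letter pairs within a population, deviations from group means correlated at -0.175 to 0.155, and for 9 between populations with 1 shRNA at 0.003 to 0.259 (median 0.043), against -0.215 to 0.131 (median -0.032) for 22 with other letters. With the letters as a replicate block, 8, 7 and 7 members were called for CMP against LSK with *Renilla*, sh10 and sh20, and 0 upon knockdown. Each letter was 1 block over all shRNAs, so a pairing of CMP and LSK libraries within a shRNA was not fitted. In CMPs *Hp*, *Ly6c2* and *Itgam* were at 4 to 49 counts, and the part of depth in their spread was not tested.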
